A study of Mus musculus with 51 samples.

Results

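Femoral gene expression was compared between Tet1/2 cKO mice and Ctrl mice, and the 6 RNA-seq libraries of this comparison were chosen by their genotype labels from 51 samples of the series. Ctrl mice were wt/wt at both Tet loci and carried Prrx1-Cre, and Tet1/2 cKO mice were Tet1 fl/fl and Tet2 fl/fl with the same Cre, so that both groups expressed the recombinase. All 6 mice were C57BL/6, 11 weeks old and on a standard diet, with 3 biological replicates per genotype. Prrx1-Cre acts in cells descended from limb mesenchyme, which gives rise to bone, cartilage, tendon and marrow stroma, whereas blood cells descend from other progenitors. The femurs were flushed and minced before RNA extraction, and the labels do not separate the cell types that remained. The same table holds 3 Tet1 cKO and 3 Tet2 cKO libraries, which entered the filter on low counts and the estimate of the spread. Some of their values are given at the end, without a test. The comparison asks how loss of both enzymes in the limb skeleton alters the femoral transcriptome.

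TET enzymes oxidize 5-methylcytosine to 5-hydroxymethylcytosine (5hmC), a step towards removal of methylation that depends on vitamin C as a cofactor. Tet1, Tet2 and Tet3 overlap in activity, and 5hmC is common in gene bodies and at distal enhancers of genes that a tissue uses. In long bones, chondrocytes of the growth plate and joint make a matrix of type II, IX, X and XI collagen and the proteoglycan aggrecan, whereas osteoblasts deposit mainly type I collagen, which must be hydroxylated, folded and trimmed by a set of dedicated enzymes.

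Among the matrix gene lists, cartilage genes had the most negative median difference in Tet1/2 cKO femurs. Col10a1, the collagen of hypertrophic chondrocytes, and Acan, which encodes aggrecan, are members of this list whose groups did not overlap. Other members, such as Col2a1 and Sox9, overlapped. The DNA before the first annotated start of Col10a1 and Acan is shown here, because 5hmC, measured in separate femurs, can form at CG dinucleotides. Both sequences are from RefSeq (GRCm38.p6, the assembly that mm10 shows), run 5′ to 3′ on the + strand, end at the base before the gene start, and have each CG in capitals.
Acan, chr7:79052976-79053225: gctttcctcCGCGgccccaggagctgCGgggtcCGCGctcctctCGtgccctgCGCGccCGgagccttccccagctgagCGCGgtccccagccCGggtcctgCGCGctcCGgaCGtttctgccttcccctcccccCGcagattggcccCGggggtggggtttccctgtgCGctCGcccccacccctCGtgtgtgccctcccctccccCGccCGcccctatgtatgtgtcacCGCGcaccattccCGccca
Col10a1, chr10:34389731-34389980: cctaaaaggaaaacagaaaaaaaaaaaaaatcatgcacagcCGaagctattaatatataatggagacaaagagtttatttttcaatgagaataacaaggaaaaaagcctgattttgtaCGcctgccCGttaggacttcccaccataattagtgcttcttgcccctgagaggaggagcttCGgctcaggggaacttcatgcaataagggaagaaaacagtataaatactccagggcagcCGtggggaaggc
The Acan sequence holds 26 CG, more than 90.4% of upstream sequences of the same length, and the Col10a1 sequence holds 5, more than 44.4% of them. The letters CG were searched, which read the same on both strands. Of all such sequences, 92.13% hold at least 1 CG and the median is 6. The count describes the sequence alone and gives no methylation level.

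A gene enters the tests below if its normalized count, the read count divided by the size factor of the library, was at least 10 in 3 of the 12 libraries. Of 25938 genes, 16780 met this filter. The 6 libraries held 28597536 to 49788434 counted reads, and the 10 most abundant genes took 7.12 to 17.2% of them. Log2 fold changes are differences of log2(normalized count + 1), Tet1/2 cKO minus Ctrl, and therefore understate the change of genes with low counts. limma called 0 genes (0% of those tested) at an adjusted p of 0.05, with a lowest adjusted p of 0.723 after Benjamini-Hochberg adjustment over all genes. At an unadjusted p of 0.05, 551 genes (3.28%) were lower and 296 (1.76%) were higher in Tet1/2 cKO. These limma p-values use the spread in all 12 libraries. Fitted to the 6 compared libraries only, limma called 0 genes, with a lowest adjusted p of 0.207. In that fit, 1214 genes were lower and 545 higher at an unadjusted p of 0.05. edgeR also called 0 genes on the recovered reads of the same libraries, with 1066 genes lower and 575 higher at an unadjusted p of 0.05. DESeq2 called 136 of the 15098 genes to which it gave an adjusted p, of which 114 were lower (0.755%) and 22 higher (0.146%) in Tet1/2 cKO. All 136 had 3 Tet1/2 cKO libraries that did not overlap with the 3 Ctrl libraries. Over all genes tested, 1683 (10.0%) lay lower without overlap and 1236 (7.37%) lay higher without overlap, and each gene list below is read against these shares. When 1 library was left out, the share over all genes was 12.2 to 21.5% for genes lying lower and 9.05 to 20.2% for genes lying higher, with the highest of both without Ctrl replicate 1, and counts below without a library are read against them. Differences are called lower or higher from their values, and a gene is said to have passed DESeq2 where only that test called it.

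The libraries differed within each genotype. Tet1/2 cKO replicate 1 stood farthest from the others, with a score of 133.2 on the first principal component, which took 55.02% of the variance, whereas the other Tet1/2 cKO libraries scored 43.8 and -37.2 and the Ctrl libraries -8.1, -74.9 and -56.8. Replicate 1 of Tet1/2 cKO had counts above 0 for 16416 genes, beside 18328 and 18017 in the other Tet1/2 cKO libraries and 17850 to 18550 in Ctrl. Its 49788434 reads were the most among the compared libraries. DESeq2 called 130 genes without that library. Without Tet1/2 cKO replicate 3 it called 975 and without Ctrl replicate 1 it called 1144, but without Ctrl replicate 2 the count was 62 and without Ctrl replicate 3 it was 29. Markers of bone and marrow were present in every library, such as Bglap, which encodes osteocalcin, at 4787 to 22343 normalized counts. X-inactivation and Y-linked genes summed to 8507 to 11366 in Ctrl and 10318 to 11938 in Tet1/2 cKO, with Xist at 5.33 to 24.9, and the groups overlapped.

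Transcripts of the targeted genes were at similar levels in both genotypes. Tet1 was at 374, 420 and 435 normalized counts in Ctrl and 485, 415 and 442 in Tet1/2 cKO. Tet2 was at 2236, 2512 and 2251 in Ctrl and 2970, 1851 and 2351 in Tet1/2 cKO, and the groups overlapped for both genes. Tet3, the member left intact, was at 3958 ± 627 in Ctrl and 4068 ± 410 in Tet1/2 cKO (SD, n = 3). The counts cover whole genes and all cells of the femur, blood cells included, so they do not check a deletion within the gene in part of the cells. Prrx1, the gene whose regulatory sequence drives the Cre, was lower at 971, 1563 and 1884 against 1752, 3796 and 3685 in Ctrl, with overlap between the groups and a log2 fold change of -1.03 (SE 0.56, limma adjusted p = 0.723). Of the 9 genes for TET enzymes, DNA methyltransferases and related factors, 0 had groups without overlap, and their median log2 fold change was 0.01 beside -0.01 over all genes tested. In such bulk samples, fewer cells of a type and less RNA per cell cannot be told apart.

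Of 26 cartilage genes, 25 passed the filter on low values and Matn1 was below it. In Tet1/2 cKO, 17 of the 25 lay below all Ctrl libraries and 0 above, against 10.0% and 7.37% of all genes, and 10 passed DESeq2 as lower. The median log2 fold change of the list was -2.39. Col10a1 was at 1377, 1039 and 740 normalized counts in the 3 Ctrl libraries and 40.4, 15.2 and 7.68 in the 3 Tet1/2 cKO libraries. The lowest Ctrl library thus lay far above the highest Tet1/2 cKO library, and the Ctrl mean was 49.8 times the Tet1/2 cKO mean. The log2 fold change was -5.82 (SE 1.74), with an adjusted p of 0.723 in limma, 0.382 in edgeR and 3.82e-25 in DESeq2. The SE and the limma p draw on the spread in all 12 libraries, Tet2 cKO included, where Col10a1 was at 2.47, 13.7 and 1803. The edgeR and DESeq2 values rest on the 6 compared libraries alone. The call for Col10a1 thus rests on DESeq2.

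Acan was at 863, 2392 and 708 in Ctrl and 53.4, 111 and 152 in Tet1/2 cKO. The groups did not overlap, although Ctrl replicate 2 was well above the other Ctrl libraries, and the Ctrl mean was 12.5 times the Tet1/2 cKO mean (log2 fold change -3.54, SE 0.97, DESeq2 adjusted p = 4.41e-09). Col9a1, a chain of the collagen that coats type II fibrils, was at 171, 2612 and 141 in Ctrl and 0, 24.3 and 20.1 in Tet1/2 cKO. Here too Ctrl replicate 2 carried most of the Ctrl signal, and DESeq2 gave no adjusted p. Col9a2, its partner chain, was at 70.8, 668 and 99 against 15.3, 7.61 and 21.1, and passed DESeq2 with an adjusted p of 0.00017. Matn3, a cartilage matrix adaptor, was at 48.6, 482 and 35.6 against 0, 3.8 and 7.68. These 5 genes were named by a rule that takes the largest differences without overlap, so the lack of overlap is part of their choice.

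Further genes of the cartilage list, other than Sox9, were picked after their values were seen. Col2a1, the main fibrillar collagen of cartilage, was at 3343, 17867 and 5885 in Ctrl and 3989, 8922 and 5278 in Tet1/2 cKO, and the groups overlapped (log2 fold change -0.30, SE 0.79). Sox9, the chondrocyte master regulator and first gene of the list, also overlapped, at 63.4, 202 and 159 in Ctrl and 83.9, 63.1 and 53.7 in Tet1/2 cKO, a log2 fold change of -0.94 (SE 0.69). Comp, a pentameric matrix protein of cartilage and tendon, was at 881, 2507 and 1534 against 100, 450 and 516 and passed DESeq2 (adjusted p = 0.015). Col11a2, a chain of type XI collagen that is also among the bone-selective genes, was at 19759, 33981 and 35272 against 8506, 13957 and 12060 (DESeq2 adjusted p = 0.0018). Scrg1 and Sox6, another chondrocyte factor, were the only list members with fold changes above 0, at 0.08 and 0.41. The cartilage list thus holds genes with groups far apart, such as Col10a1, beside genes with groups that overlap, such as Col2a1 and Sox9.

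**Figure D1:**
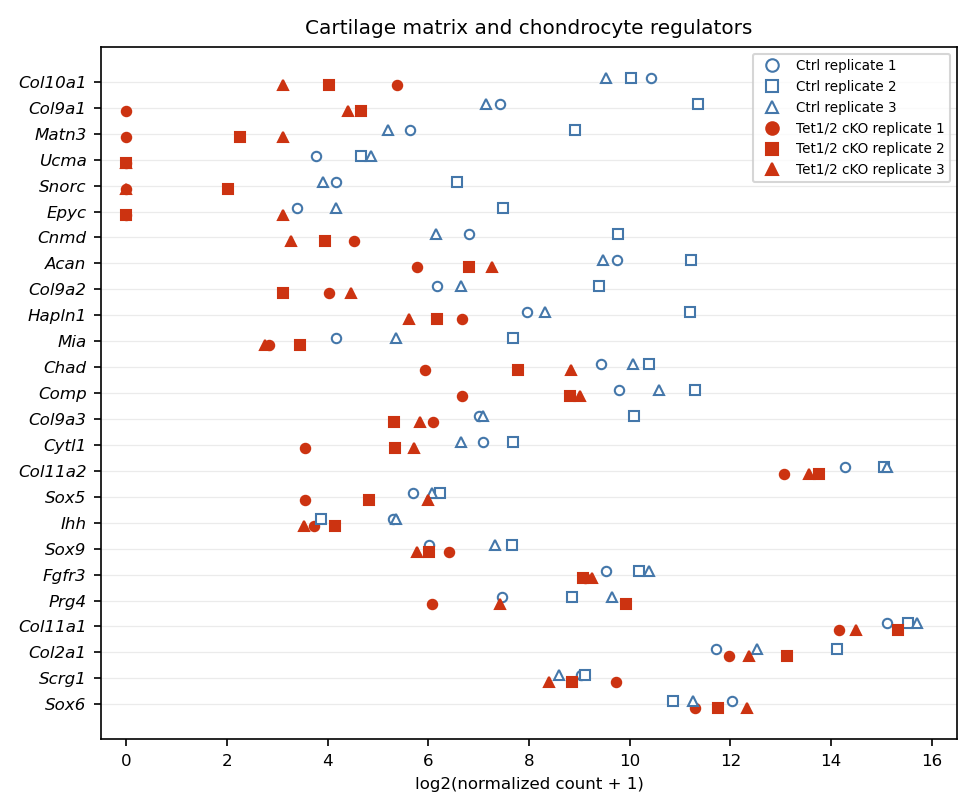
Levels of the tested cartilage genes in each library, as log2(normalized count + 1) on the x axis, with 1 gene per line and points for the 3 Ctrl and 3 Tet1/2 cKO libraries. For 17 of the 25 genes all Tet1/2 cKO points lie to the left of all Ctrl points, with the widest gap for Col10a1.

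The number of cartilage genes without overlap was 17 to 20 when any 1 of the 6 libraries was left out. Leaving out a library can raise such a number but cannot lower it, and the share over all genes also rose, to between 12.2% and 21.5%. The median fold change of the list was less negative, -1.65, without Tet1/2 cKO replicate 1. Ctrl replicate 2 was the highest cartilage library, with a score of 0.66 against -0.71 and -0.32 in the other Ctrl libraries, where a score is the median over the list of the log2 difference from the Ctrl mean. The Tet1/2 cKO libraries scored -2.91, -2.19 and -1.54.

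5hmC had been profiled by hMeDIP-seq, which immunoprecipitates hydroxymethylated DNA, in decalcified Ctrl and Tet1/2 cKO femurs, with 3 animals per genotype and 1 peak list each, so no test across animals was possible. The Ctrl list holds 259326 peaks over 273.4 Mb and the Tet1/2 cKO list 146626 peaks over 122.9 Mb. Within 30 kb of the Acan start, 17 peaks were listed in Ctrl and 2 in Tet1/2 cKO, and 2 of the 17 overlapped a Tet1/2 cKO peak. Col10a1 had 8 peaks in Ctrl and 3 in Tet1/2 cKO. Over all 16553 genes with a RefSeq position, the mean number was 10.84 in Ctrl and 6.14 in Tet1/2 cKO, with a median log2 ratio of -0.81. Over the 25 cartilage genes it was 11.2 and 5.84, with a median log2 ratio of -0.85. The cartilage list thus lay close to all genes in its ratio of peak numbers. The lists also differed in median fold enrichment over local background, 3.45 in Ctrl and 4.02 in Tet1/2 cKO. Near Acan, MACS2 gave a Ctrl peak of fold 4.57 a −log10 q of 18.1, where a higher value marks a more certain peak. It gave a Tet1/2 cKO peak of fold 5.47 a −log10 q of 10.2. The depth behind the 2 peak lists is unknown, and its part in these counts was not tested.

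The Ctrl peak of highest enrichment near Acan had its summit at -7291 bases relative to the start (chr7:79045618-79046282, fold 4.57), and was 1 of the 2 that overlapped a Tet1/2 cKO peak, there of fold 5.47. The Ctrl peak nearest the start had its summit at -868 bases (chr7:79051923-79052629, fold 2.97) and overlapped no Tet1/2 cKO peak. The bases around each summit, with 100 on each side, are shown to set the peak without a counterpart beside the peak with one, in GRCm38.p6 on the + strand with CG in capitals.
Peak nearest the start, chr7:79052258-79052458: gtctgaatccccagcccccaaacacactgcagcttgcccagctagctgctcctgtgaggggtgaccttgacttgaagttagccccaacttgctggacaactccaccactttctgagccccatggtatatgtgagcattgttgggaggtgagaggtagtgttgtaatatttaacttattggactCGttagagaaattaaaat
Peak of highest enrichment, chr7:79045835-79046035: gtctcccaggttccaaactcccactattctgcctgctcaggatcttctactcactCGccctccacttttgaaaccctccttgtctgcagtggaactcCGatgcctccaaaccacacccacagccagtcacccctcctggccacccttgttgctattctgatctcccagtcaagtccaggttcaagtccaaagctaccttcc
These windows hold 1 and 2 CG, far fewer than the 250 bases directly before the gene, which overlap none of the 17 peaks.

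**Figure D2:**
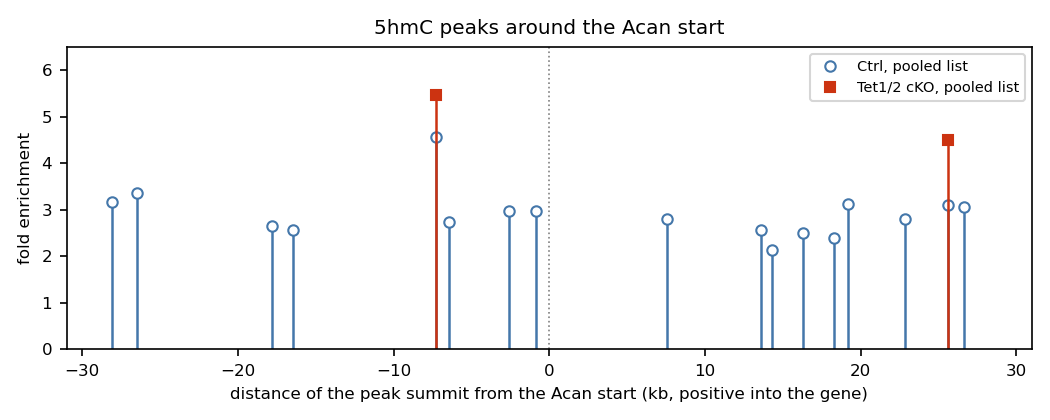
5hmC peaks around the Acan start, with the distance of each peak summit from the start in kb on the x axis (positive into the gene) and its fold enrichment on the y axis, for the Ctrl and the Tet1/2 cKO peak lists. The 17 Ctrl peaks lie on both sides of the start, and the 2 Tet1/2 cKO peaks stand where a Ctrl peak also stands.

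Fibrillar collagens were lower in Tet1/2 cKO in 8 of 8 genes, of which 5 had groups without overlap and 2 passed DESeq2, with a median log2 fold change of -1.09 (-0.71 without Tet1/2 cKO replicate 1). Col1a1, the main chain of bone collagen and also a bone-selective gene, was at 387599, 415356 and 516478 in Ctrl and 112045, 247495 and 198946 in Tet1/2 cKO (chr11:94936224-94953042). No library overlapped, and the log2 fold change was -1.30 (SE 0.85, limma adjusted p = 0.723, DESeq2 adjusted p = 0.0112). Col1a2, its partner chain, was at 571032 ± 96423 in Ctrl and 273205 ± 106268 in Tet1/2 cKO (SD, n = 3; DESeq2 adjusted p = 0.0492). Col27a1, a fibrillar collagen of cartilage and bone, was at 788, 2901 and 1311 against 386, 498 and 763, with a DESeq2 adjusted p of 0.0513. Peak counts around Col1a1 were 15 in both 5hmC lists.

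Among 13 other collagens, 12 had lower fold changes, 8 did not overlap and 3 passed DESeq2, and the median log2 fold change was -1.05 (-0.69 without Tet1/2 cKO replicate 1). Col6a2, a chain of the pericellular microfibril collagen, was at 4097, 4802 and 5791 in Ctrl and 1141, 2332 and 2877 in Tet1/2 cKO (DESeq2 adjusted p = 0.0434). Col6a3, which pairs with it, had a Ctrl mean 2.61 times that of Tet1/2 cKO but did not pass DESeq2 (adjusted p = 0.066). Col8a1, a network-forming short-chain collagen, was at 4077, 12404 and 6817 against 2276, 3113 and 3548 (DESeq2 adjusted p = 0.0373). The basement membrane collagen gene Col4a1 was at 6772 ± 1243 in Ctrl and 3717 ± 1248 in Tet1/2 cKO, without overlap.

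The enzymes and chaperones that make collagen were mostly lower as well. Of 22 such genes, 17 lay lower without overlap in Tet1/2 cKO, 0 lay higher, and 6 passed DESeq2, with a median log2 fold change of -0.92 (-0.58 without Tet1/2 cKO replicate 1). P4ha2, a catalytic subunit of prolyl 4-hydroxylase, was at 1083, 1346 and 1798 in Ctrl and 311, 620 and 617 in Tet1/2 cKO (log2 fold change -1.49, SE 0.56, DESeq2 adjusted p = 0.00735). Pcolce, which enhances removal of the procollagen C-propeptide, was at 4279, 5821 and 6123 against 1310, 2826 and 2663 (DESeq2 adjusted p = 0.0176), and Bmp1, the protease it assists, was at 9319 ± 2318 against 4248 ± 1487 (DESeq2 adjusted p = 0.0467). P3h4, a scaffold of a lysine hydroxylation complex, did not overlap at 694, 1247 and 923 against 237, 558 and 410 but had a DESeq2 adjusted p of 0.0628.

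Within that list, the following genes were singled out after their values were seen. Plod2, which hydroxylates telopeptide lysines for cross-links, was at 5874, 11435 and 10267 against 2498, 5210 and 3866 (DESeq2 adjusted p = 0.0316). Serpinh1, the collagen chaperone HSP47, and Creb3l1, a transcription factor that drives collagen secretion in osteoblasts, passed DESeq2 as lower, with adjusted p-values of 0.0315 and 0.00968. By contrast P4hb, the subunit that prolyl hydroxylase shares with general disulphide isomerization, was at 13528 ± 1810 in Ctrl and 14016 ± 1854 in Tet1/2 cKO. Plod3, a lysyl hydroxylase with broader substrates, was at 2736 ± 80.4 and 2770 ± 351, and Ppib, a general peptidyl-prolyl isomerase, at 2384 ± 129 and 2236 ± 333. These last 3 genes overlapped between the groups. The count without overlap was 17 to 18 of 22 when any 1 library was left out, and leaving out a library could not lower it.

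**Figure D3:**
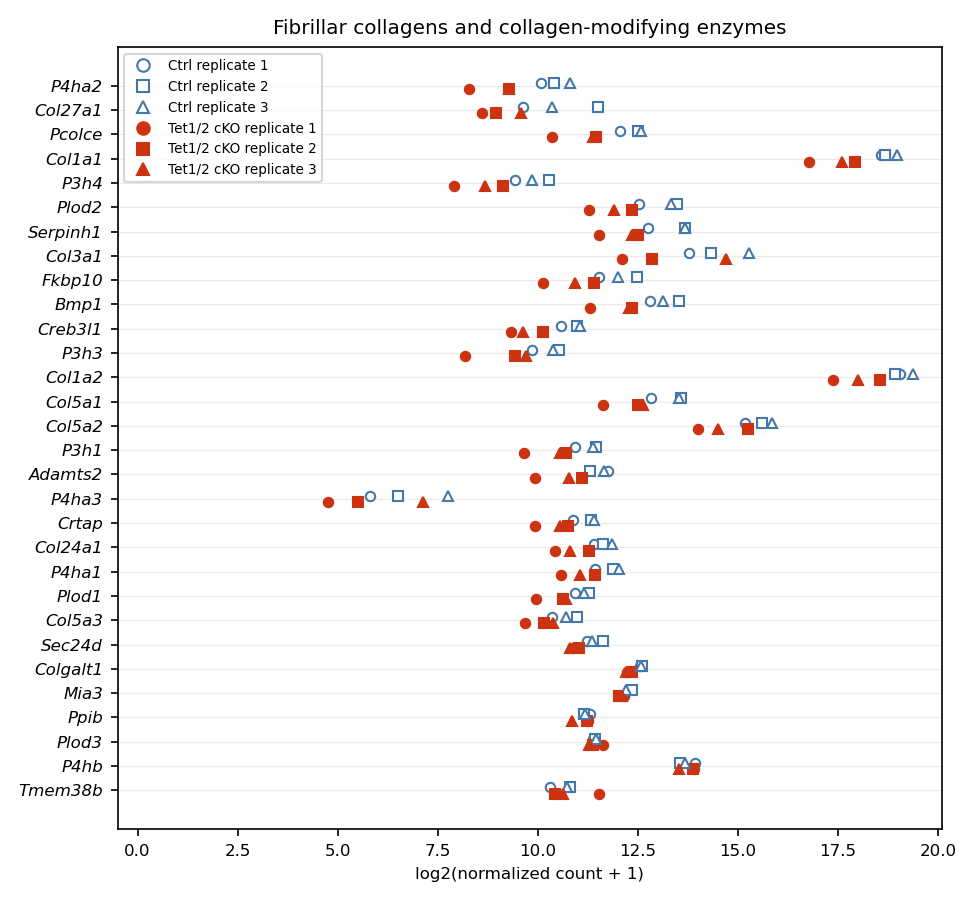
Levels of the fibrillar collagens and the collagen-modifying enzymes and chaperones in each library, as log2(normalized count + 1) on the x axis, with 1 gene per line and points for the 3 Ctrl and 3 Tet1/2 cKO libraries. Type I collagen chains and P4ha2 separate by genotype, whereas the points of P4hb, Plod3 and Ppib intermix.

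Cross-linking and matrix turnover genes held 5 of 14 members lower without overlap and 0 that passed DESeq2, with a median log2 fold change of -0.67. The median was -0.40 without Tet1/2 cKO replicate 1. Without Ctrl replicate 1, 12 members lay lower without overlap, beside 21.5% of all genes. Timp1, an inhibitor of metalloproteinases, was at 1177, 2021 and 1666 in Ctrl and 285, 841 and 769 in Tet1/2 cKO, and of the lysyl oxidase homologues, Loxl1 was at 999 ± 267 and 498 ± 227, and Loxl3 had a Ctrl mean 1.91 times that of Tet1/2 cKO. Lox itself overlapped, at 6298 ± 1597 and 4399 ± 1248. Of 25 proteoglycans and glycoproteins, 24 had lower fold changes, 9 did not overlap and 0 passed DESeq2, with a median of -0.78. The count without overlap was 14 without Ctrl replicate 1 (21.5% of all genes) and 17 without Tet1/2 cKO replicate 3 (20%). Bgn, the small proteoglycan biglycan, was at 28432, 27222 and 28453 in Ctrl and 11417, 21779 and 18041 in Tet1/2 cKO. The microfibril gene Mfap2 was at 208, 368 and 449 in Ctrl against 99.2, 149 and 164 in Tet1/2 cKO, Eln, which encodes elastin, at 861 ± 170 against 407 ± 243, and Omd, the osteoblast proteoglycan osteomodulin, at 1644 ± 611 against 783 ± 214. All 4 had groups without overlap. For comparison, 32 of the 55 tested bone-selective genes were lower without overlap, 10 passed DESeq2, and the median was -0.93. That list comes from the study, which related it to these libraries, and is not independent evidence of its direction.

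Skeletal muscle genes split the Tet1/2 cKO group rather than the genotypes. The 37 genes summed to 232505, 896590 and 954884 normalized counts in Ctrl and 17032, 11387 and 873540 in Tet1/2 cKO, so that replicates 1 and 2 were low and replicate 3 lay within the Ctrl range. The median log2 fold change was -3.42 in limma, -1.22 in edgeR and -1.20 in DESeq2, and 0 of 37 genes had groups without overlap and 0 passed DESeq2. Acta1, skeletal actin, was at 13936, 60390 and 64819 in Ctrl and 881, 338 and 55893 in Tet1/2 cKO. Myh4, the fast IIb myosin, was at 26056, 69963 and 140652 against 688, 134 and 132949. Without Tet1/2 cKO replicate 3, 32 of 37 muscle genes lay lower without overlap, beside 20% of all genes, and the median was -5.52. Without Tet1/2 cKO replicate 2 the median was -2.27, and without Ctrl replicate 1, 16 genes lay lower without overlap, beside 21.5% of all genes.

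Muscle levels thus differed between libraries of 1 genotype, and are set here beside the lists above. Tet1/2 cKO replicate 3, with a muscle score of 0.59 against -1.33 to 0.68 in Ctrl, scored -1.54 for cartilage, -0.68 for collagen-modifying enzymes and -0.86 for fibrillar collagens, each below all 3 Ctrl libraries. Its scores of -0.58 for other collagens and -0.44 for cross-linking and turnover genes also lay below them. By contrast, it lay within the Ctrl range for proteoglycans and glycoproteins (-0.25 against -0.31 to 0.24). The same held for tendon, periosteum and fibroblast genes (-0.15 against -0.68 to 0.47). Ctrl replicate 1, the lowest Ctrl library for muscle, was also the lowest for cartilage (-0.71), collagen-modifying enzymes (-0.32) and fibrillar collagens (-0.34). The part of muscle or of other tissue in the differences of the remaining libraries was not tested.

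**Figure D4:**
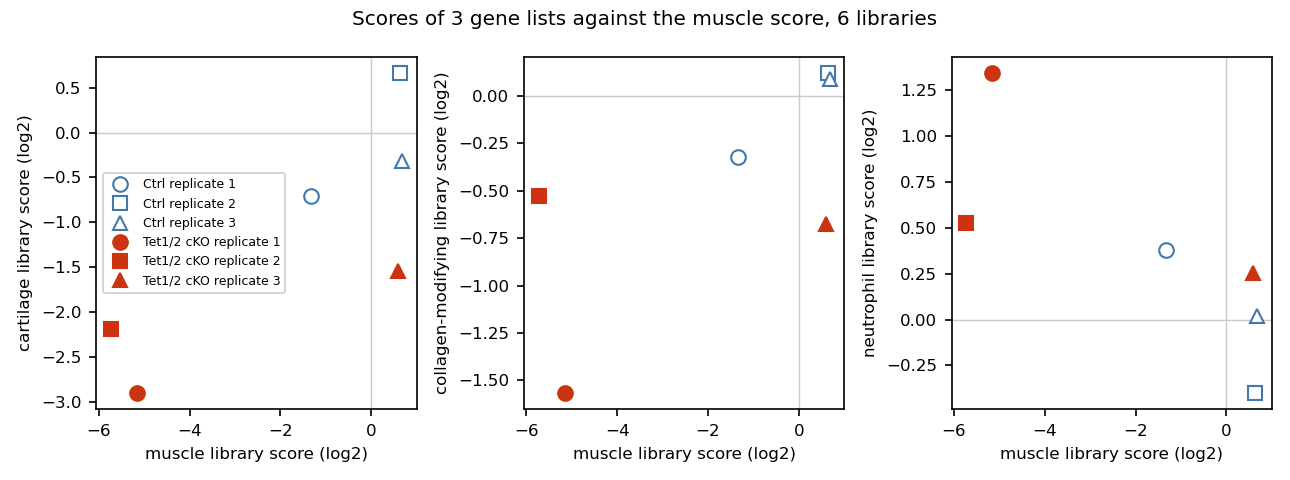
Library scores of the cartilage, collagen-modifying and neutrophil lists (y axes, log2 relative to the Ctrl mean) against the muscle score (x axis, same scale) for the 3 Ctrl and 3 Tet1/2 cKO libraries. Tet1/2 cKO replicate 3 sits at a muscle score of 0.59, among the Ctrl libraries, and below them for cartilage and for the collagen-modifying genes.

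Lists of other stromal lineages were examined in the same way. Of 15 tendon, periosteum and fibroblast genes, 3 were lower without overlap and 1 passed DESeq2. That gene was Cthrc1, a secreted regulator of matrix-producing cells, at 1240, 2862 and 2483 in Ctrl and 778, 1166 and 855 in Tet1/2 cKO (DESeq2 adjusted p = 0.0372). Scx, the tendon transcription factor, overlapped at 36, 96.2 and 51.8 against 19.8, 16 and 45.1. The receptors Pdgfra and Pdgfrb, which mark mesenchymal stroma, had Ctrl means 1.54 and 1.49 times those of Tet1/2 cKO, without overlap. The list median of -1.17 became -0.46 without Tet1/2 cKO replicate 1. The count without overlap became 10 without Ctrl replicate 1 (21.5% of all genes) and 9 without Tet1/2 cKO replicate 3 (20%).

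Of 11 marrow stromal niche factors, 4 were lower and 1 higher without overlap, with a median of -0.31 (-0.19 without Ctrl replicate 2). Cxcl12, the chemokine that holds blood progenitors in the marrow, overlapped at 96014, 56369 and 81510 in Ctrl and 58567, 61887 and 63602 in Tet1/2 cKO. Il7, the cytokine of early B cells, was at 191, 228 and 211 against 108, 86.7 and 167, and Igf1, a growth factor of bone and muscle, at 1546 ± 217 against 1092 ± 184. Tnfsf11, which encodes RANKL and drives osteoclast formation, was the member that lay higher, at 337, 415 and 316 in Tet1/2 cKO against 168, 307 and 271. None of these passed DESeq2. Adipocyte genes were lower without overlap in 4 of 15, with a median of -0.69 and 0 past DESeq2. The median was -0.35 without Tet1/2 cKO replicate 1. The count was 7 without Ctrl replicate 1 (21.5% of all genes) or Tet1/2 cKO replicate 2 (14.8%). Adipoq, the adipokine adiponectin, was at 2582, 1587 and 2305 in Ctrl and 894, 1343 and 1247 in Tet1/2 cKO, and Cfd, or adipsin, ranged more widely at 448, 1483 and 786 against 21.4, 393 and 340.

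Endothelial genes had lower fold changes in 14 of 14, were lower without overlap in 6 and passed DESeq2 in 3, with a median log2 fold change of -0.61. The median was -0.33 without Tet1/2 cKO replicate 1. Without Ctrl replicate 2, 10 genes lay lower without overlap, beside 14.3% of all genes. Egfl7, secreted by vessel endothelium, was at 1701, 2126 and 2430 in Ctrl and 827, 1204 and 1235 in Tet1/2 cKO, a log2 fold change of -0.94 (SE 0.26, DESeq2 adjusted p = 0.0314). Stab1, a scavenger receptor of marrow sinusoids, was at 3620, 3684 and 3126 against 1089, 1781 and 2304 (DESeq2 adjusted p = 0.0494). Pecam1, found on all endothelium, separated by less, at 5388, 5198 and 6321 against 3675, 4509 and 4613. Osteoclast genes were lower without overlap in 4 of 15, and 0 passed DESeq2. Their median of -0.73 was -0.48 without Tet1/2 cKO replicate 1 and -0.15 without Ctrl replicate 2, the library in which Acp5, the tartrate-resistant acid phosphatase, stood at 67679 against 19197 and 21634 in the other Ctrl libraries and 7305, 15021 and 18843 in Tet1/2 cKO. Calcr, the calcitonin receptor, followed the same order at 131, 691 and 153 against 27.5, 94.3 and 112, and Ctsk, the main collagen-degrading protease, overlapped.

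Marrow cells gave differences in both directions, and 0 genes of the neutrophil, erythroid, B-cell precursor and cell cycle lists passed DESeq2. All 19 neutrophil genes had fold changes above 0, with a median of 0.67, and 3 lay higher without overlap, beside 7.37% of all genes. Cxcr2, the receptor that draws mature neutrophils out of the marrow, was at 5110, 3921 and 3590 in Ctrl and 15357, 6418 and 5361 in Tet1/2 cKO. Ly6g, their surface marker, was at 2959, 1609 and 2134 against 7038, 3641 and 2971, and Csf3r, the G-CSF receptor, at 19031, 12624 and 14513 against 32387, 21580 and 19339. Tet1/2 cKO replicate 1 was the highest library for each, and replicate 3 lay close to Ctrl replicate 1. Elane, made by early granulocyte precursors, overlapped at 13777 ± 3125 and 16049 ± 2670. Without Ctrl replicate 1, 15 of 19 were higher without overlap, beside 20.2% of all genes, and without Tet1/2 cKO replicate 3, 11 were, beside 13.7%. Leaving out any other library gave 3 or 4. The median was 0.40 without Tet1/2 cKO replicate 1, and the list scores of the 6 libraries were 0.38, -0.40 and 0.02 in Ctrl and 1.34, 0.52 and 0.25 in Tet1/2 cKO.

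The cell cycle list was at similar levels in the Tet1/2 cKO libraries, which scored 0.46, 0.56 and 0.44 against 0.39, -0.36 and -0.03 in Ctrl. All 22 genes had fold changes above 0 and 10 lay higher without overlap, with a median of 0.47. Top2a, the mitotic topoisomerase, was at 30631, 18013 and 21452 in Ctrl and 36868, 34936 and 31755 in Tet1/2 cKO. Bub1, a spindle checkpoint kinase, was at 2854, 2232 and 2193 against 3777, 3884 and 3320, and Kif11, a spindle motor, at 9553 ± 2271 against 14302 ± 1736. Mki67 overlapped because Ctrl replicate 1 stood at 83148, and all 22 genes lay higher without overlap when that library was left out, beside 20.2% of all genes. Leaving out any other library gave 10 to 14 of 22.

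Of 21 erythroid genes tested, 19 had fold changes above 0, with a median of 0.33 and 0 without overlap. The median ranged from 0.13 without Ctrl replicate 2 to 0.68 without Ctrl replicate 1, with 0.15 without Tet1/2 cKO replicate 3 and 0.67 without Tet1/2 cKO replicate 1. Without Tet1/2 cKO replicate 1, 11 genes lay higher without overlap (11.6% of all genes), and without Ctrl replicate 1, 9 did (20.2%). Slc4a1, the anion exchanger of red cells, was at 77734, 30079 and 42248 in Ctrl and 39292, 59877 and 76274 in Tet1/2 cKO. Hba-a1, an alpha-globin copy whose reads cannot be cleanly told from its near-identical neighbour, was at 4950 ± 1152 and 3697 ± 1657. B-cell precursor genes had fold changes below 0 in 18 of 19, with a median of -0.47 and 4 lower without overlap. The median was -0.17 without Tet1/2 cKO replicate 1 and -0.30 without Ctrl replicate 1. The count was 12 without Ctrl replicate 2, beside 14.3% of all genes, and 7 without Tet1/2 cKO replicate 2, beside 14.8%. Vpreb3 and Fcrla, both expressed along early B-cell stages, had Ctrl means 1.51 and 1.62 times those of Tet1/2 cKO. For Vpreb3 the Ctrl libraries were at 1334, 1314 and 1312 and the Tet1/2 cKO libraries at 497, 1116 and 1006, with replicate 1 lowest, whereas Vpreb1 overlapped.

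**Figure D5:**
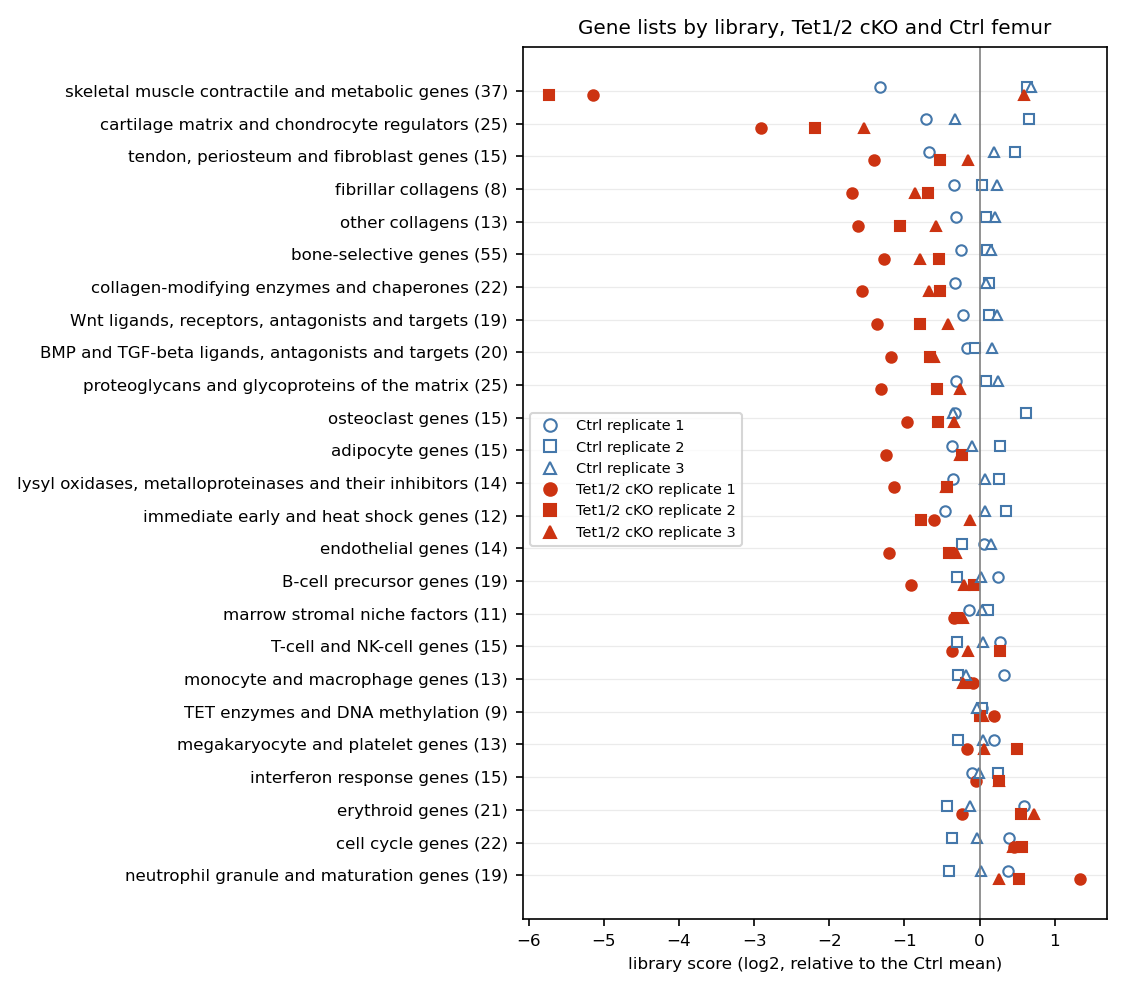
Library scores of the gene lists, where each score is the median over the list of the log2 difference from the Ctrl mean (x axis), with 1 list per line, the number of tested genes in brackets and points for the 3 Ctrl and 3 Tet1/2 cKO libraries. All Tet1/2 cKO points lie left of all Ctrl points for cartilage, fibrillar collagens and collagen-modifying enzymes, all lie right of them for the cell cycle list, and the muscle points of Tet1/2 cKO fall at -5.15, -5.73 and 0.59.

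Wnt components were lower without overlap in 10 of 19 genes, of which 5 passed DESeq2, with a median log2 fold change of -0.87 (-0.57 without Ctrl replicate 3). Among ligands, Wnt10b, which favours osteoblast formation, was at 221, 295 and 361 in Ctrl and 89.3, 113 and 119 in Tet1/2 cKO (log2 fold change -1.42, SE 0.67, DESeq2 adjusted p = 0.00674), and Wnt4 was at 611, 1357 and 745 against 330, 586 and 522. Of secreted antagonists, Notum, an enzyme that strips the lipid from Wnt ligands, was at 115, 241 and 117 against 26.7, 43.4 and 36.5 (DESeq2 adjusted p = 0.00626). Axin2, a target and feedback inhibitor of the pathway, was at 184, 127 and 196 against 32.1, 91.3 and 98.8, without overlap, and did not pass DESeq2 (adjusted p = 0.259). Lower levels were thus seen among ligands, antagonists and a target alike. The 5hmC peaks within 30 kb numbered 14 in Ctrl and 2 in Tet1/2 cKO for Notum, and 14 and 9 for Wnt10b. They numbered 20 and 9 for Wnt4 and 19 and 18 for Axin2.

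Further members of the Wnt list were picked after their values were seen. Lrp4, the co-receptor that anchors sclerostin on osteocytes and is among the bone-selective genes, was at 5082, 5812 and 5115 in Ctrl and 2441, 3064 and 2917 in Tet1/2 cKO (log2 fold change -0.93, SE 0.42, DESeq2 adjusted p = 0.000142). The replicates of Lrp4 were close in both genotypes. Wif1, a secreted Wnt-binding inhibitor, was at 3779, 4221 and 5295 against 1676, 2425 and 1461 (DESeq2 adjusted p = 0.00105), and Sfrp1, another one, passed with an adjusted p of 0.0316. Sost, which encodes sclerostin, was the member with the opposite sign, at 720, 200 and 445 against 1115, 2033 and 567, and overlapped.

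BMP and TGF-beta genes were lower without overlap in 7 of 20, with a median of -0.79, and Bmp1, described above as a procollagen protease, was the 1 member that passed DESeq2. The count was 13 without Ctrl replicate 1 (21.5% of all genes) and 12 without Tet1/2 cKO replicate 3 (20%). Id3, an immediate target of BMP signalling, was at 2307, 4216 and 4042 in Ctrl and 813, 1868 and 1765 in Tet1/2 cKO (DESeq2 adjusted p = 0.0559). Bmp8a, a ligand, was at 225, 221 and 162 against 82.4, 75.3 and 108 (DESeq2 adjusted p = 0.0529). Both genes had groups without overlap.

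Over all genes, the 10 largest negative differences were taken among genes without overlap that had a mean of at least 100 in the higher group and a limma p below 0.05. Of these 10 genes, 5 belong to the cartilage list and were given above. Clec3a, a C-type lectin of cartilage, was at 211, 1109 and 370 in Ctrl and 0, 82.2 and 3.84 in Tet1/2 cKO. Prkg2, the cGMP-dependent kinase of growth plate chondrocytes, was at 108, 531 and 80.4 against 0, 20.5 and 13.4. Neither passed DESeq2. Calml3, a calmodulin-like protein, was at 57.1, 252 and 104 against 6.1, 15.2 and 5.76, a log2 fold change of -3.65 (SE 0.64, DESeq2 adjusted p = 8.52e-05). Rpl39l, a ribosomal protein paralogue, was at 206 ± 53.2 and 37.7 ± 34.3, and Hspa1a, an inducible heat shock protein, at 168 ± 77.4 and 20.5 ± 20.2. Both have near-identical relatives that can share reads, so their levels are uncertain.

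The 10 largest positive differences, taken by the same rule, were smaller and of mixed identity. AA465934, an uncharacterized transcript, was at 98.3, 299 and 82.8 in Ctrl and 410, 1142 and 957 in Tet1/2 cKO, a log2 fold change of 2.50 (SE 0.65, DESeq2 adjusted p = 0.00453). Dsp, which encodes the desmosome protein desmoplakin, was at 165, 125 and 51 against 427, 576 and 320 (log2 fold change 2.06, SE 0.64, DESeq2 adjusted p = 0.00707). Il1b, the inflammatory cytokine interleukin 1 beta, was at 1681, 848 and 1097 against 5860, 2387 and 2530 (DESeq2 adjusted p = 0.0155), and as with the neutrophil genes, replicate 1 was highest. Mcmdc2, a gene of meiotic recombination, and Gpr141b, an orphan receptor, also passed DESeq2, with adjusted p-values of 0.0201 and 0.0315. Timd4, a phosphatidylserine receptor of macrophages, Acod1, which makes itaconate, Gls2, a glutaminase, Hgf, the hepatocyte growth factor, and Ighv1-7, an immunoglobulin variable segment, lay higher without overlap, at up to 3.32 times the Ctrl mean for Timd4, and did not pass DESeq2. By the rule of choice, all 20 genes of these 2 paragraphs have groups without overlap.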

How the data were processed

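RNA-seq reads of minced femurs had been trimmed, aligned to mm10 with STAR 2.6.0b-1 and counted with featureCounts 1.6.3, per the labels. The deposited values are a normalized count signal, for which the authors divided gene counts by size factors from DESeq2. Fold enrichment, a ratio over local background, and −log10 q of each 5hmC peak are as deposited by the authors from MACS2, on 1 list per genotype with animals pooled.

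Here, limma 3.58.1 with a trend was fitted to log2(value + 1) of 12 libraries with a term per genotype (R 4.3.3), with Benjamini-Hochberg adjustment over all genes tested and a call at 0.05. Whole reads were recovered from the values (100% within 0.01 of a whole number in the 6 libraries) and tested with edgeR 4.0.16 and DESeq2 1.42.0 as alternatives. The labels call the samples biological triplicates, and no batch is named in them. Replicate numbers were not used as pairs. Peaks were counted where their midpoint lies within 30 kb of the RefSeq gene start.

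The libraries and gene lists were chosen with earlier results of these data known. The lists (matrix, cartilage, muscle, stroma, marrow, signalling, and a check of X and Y genes) were written by hand, and the bone-selective list is from the study. Of 448 listed genes, 445 were tested. Genes named are Tet1, Tet2, Tet3 and Prrx1, up to 3 genes of each list with the largest difference among those without overlap and with a mean of at least 100 in the higher group (where there is none, the most abundant), the 10 largest differences in each direction among all genes, and the first gene of each list. Others are marked as chosen after their values were seen. Alternatives changed the scaling, filter, pseudocount, libraries, block, count model, peak window and peak threshold. No set test was run, and lists are described by counts and medians.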

Additional observations from a re-analysis of the deposited data

How the results depend on the processing

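The number of genes past the threshold was 0 in limma under both other scalings, both other filters, both other pseudocounts, with 6 libraries only, and without each library in turn. With the replicate number as a block it was also 0 (442 lower and 223 higher at an unadjusted p of 0.05, lowest adjusted p 0.768), and the replicate block changed no other call. Deviations of same-numbered libraries correlated at 0.231, -0.121 and 0.175, and only 1 of the 3 Tet1/2 cKO libraries correlated best with its own number. With 3 libraries per genotype, these values cannot settle whether the numbers pair the samples. edgeR gave 0 and DESeq2 136. Leaving out libraries in the count models was chosen after seeing the data. DESeq2 called 29 to 1144 genes in this way, with 130, 200 and 975 without Tet1/2 cKO replicates 1, 2 and 3, and 1144, 62 and 29 without Ctrl replicates 1, 2 and 3. edgeR called 93 without Tet1/2 cKO replicate 3 (91 lower, 2 higher) and 0 without any other library. The cause was not tested.

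Without each library in turn, the median log2 fold change ranged from -2.78 to -1.65 for cartilage, the latter without Tet1/2 cKO replicate 1, from -5.52 to -2.27 for muscle, from -1.24 to -0.71 for fibrillar collagens and from 0.40 to 0.92 for neutrophil genes. The muscle median was -1.22 in edgeR and -1.20 in DESeq2. Of 424 alternatives over 25 lists, 6 moved a median by more than the spread of the libraries, and 9 changed its sign, in 4 lists (TET enzymes, megakaryocyte, macrophage, and T and NK cells). The replicate block and the fit to the compared libraries only are among these alternatives but could not move a median.

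Over 102 named genes and 1631 alternatives, 13 fold changes in 5 genes changed sign. For these 5 genes the leave-out ranges were -0.49 to 0.28 for Cd3e, -0.22 to 0.060 for Pf4 and -0.023 to 0.66 for Slc4a1. They were -0.16 to 0.18 for Tet2 and -0.050 to 0.17 for Tet3. Tet2 was also -0.0093 with TMM and -0.025 with upper-quartile scaling. All 5 genes had groups that overlapped. Most named genes were chosen for groups without overlap, and leaving out a library cannot change the sign of such a gene. Other filters, the fit to the compared libraries only and the replicate block leave each fold change as it is. The count of 13 thus follows largely from these choices and does not measure how stable the named genes are. Of the named genes, 22 were called by DESeq2 only. For peak numbers, 14 of 81 alternatives moved a list's median log2 ratio by over 0.5.

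A limit is the number of 3 libraries per genotype, with muscle, cartilage and marrow levels that differ between libraries of 1 genotype. The p-values set each difference against a spread between samples, which the main limma fit takes from all 12 libraries. Depth, 28597536 to 49788434 reads, limits single genes near the filter of 10 normalized counts. The deposited 5hmC lists pool animals and give no spread.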

Other observations

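Further programs were examined in the same libraries. Of 12 immediate early and heat shock genes, 2 lay lower and 1 higher without overlap (16.7% and 8.33%, beside 10.0% and 7.37% of all genes). The median log2 fold change was -0.62 (-0.30 without Ctrl replicate 2 and -0.37 without Tet1/2 cKO replicate 2). Hspa1b, a copy of the inducible heat shock protein that shares reads with Hspa1a, was at 59.2, 157 and 224 normalized counts in Ctrl and 22.9, 13.7 and 32.6 in Tet1/2 cKO (DESeq2 adjusted p = 0.00735). Dusp1, a phosphatase that shuts down MAP kinases, differed in the other direction, at 1241, 1220 and 774 against 2063, 1564 and 2064, and Fos overlapped at 504 ± 294 and 984 ± 367 (SD, n = 3). Stress-response genes of this list thus did not share a direction.

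Among 15 interferon response genes, 2 were higher without overlap (13.3%, beside 7.37% of all genes). The median was 0.19 (0.12 without Tet1/2 cKO replicate 3). Ifit2 was at 832, 922 and 872 in Ctrl and 1377, 968 and 1073 in Tet1/2 cKO, and Oasl2 at 2000 ± 278 and 2367 ± 52.3. Monocyte and macrophage genes had a median of -0.10. Of 13, 2 were lower and 1 higher without overlap (15.4% and 7.69%, beside 10.0% and 7.37% of all genes). The complement genes C1qa and C1qc, made by resident macrophages, were the lower ones, and Ly6c2, a marker of inflammatory monocytes that belongs to a family of similar genes, the higher one, at 15517, 9690 and 14099 against 29832, 19911 and 15859. Csf1r, the receptor shared by these cells, overlapped. T and NK cell genes had a median of -0.11. Of 15, 1 lay lower without overlap, the kinase gene Lck (6.67%, beside 10.0% of all genes), and Cd3e overlapped. Megakaryocyte genes had a median of 0.12. Of 13, 1 lay higher without overlap, the platelet chemokine gene Ppbp (7.69%, beside 7.37% of all genes), and Pf4 overlapped. No gene of these last 4 lists passed DESeq2. Without each library in turn, the medians ranged from -0.25 to 0.07 for macrophage, from -0.25 to 0.0024 for T and NK cell and from -0.08 to 0.28 for megakaryocyte genes, with the highest of the first 2 without Ctrl replicate 1 and of the last without Tet1/2 cKO replicate 1. Of the interferon genes, 7 lay higher without overlap when Tet1/2 cKO replicate 1 was left out, beside 11.6% of all genes. Without Ctrl replicate 2, 5 did, beside 12.3%.

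The single cKO libraries of the same table share the Ctrl libraries and were not tested here. Col10a1 was at 5.46, 7.86 and 16.1 in Tet1 cKO and 2.47, 13.7 and 1803 in Tet2 cKO, beside 740 to 1377 in Ctrl and 7.68 to 40.4 in Tet1/2 cKO. In 5 of these 6 libraries it was thus as low as in Tet1/2 cKO. Acan was at 2486, 220 and 1025 in Tet1 cKO and 597, 265 and 2901 in Tet2 cKO, each above the highest Tet1/2 cKO library. This did not hold for the other cartilage genes named by the rule. Col9a1 was at 38.2, 17.7 and 58.2 in Tet1 cKO and 147, 13.7 and 1087 in Tet2 cKO. Col9a2 was at 101, 29.5 and 14.1 and at 61.8, 27.4 and 520, and Matn3 at 25.9, 9.83 and 0 and at 12.4, 21.6 and 106. AA465934 was at 106, 600 and 344 in Tet1 cKO and 579, 824 and 712 in Tet2 cKO, and Dsp at 21.8, 143 and 54.2 and at 89, 56.8 and 53.1. The cartilage scores were -0.51, -1.71 and -1.63 in Tet1 cKO and -0.93, -1.96 and 0.82 in Tet2 cKO, and the muscle scores 1.97, -3.53 and -5.07 and 2.32, 1.35 and -6.09.

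Peak numbers near other gene groups were also compared without a test. The median log2 ratio of 5hmC peaks, Tet1/2 cKO over Ctrl, was -0.33 for fibrillar collagens, -0.74 for muscle, -0.87 for neutrophil and -0.95 for cell cycle genes, beside -0.81 over all genes. Lower and higher RNA levels thus both occurred in lists with fewer peaks. For the 8 fibrillar collagens the size of the ratio depended on the measure. It was 0 within 10 kb, beside -0.585 over all genes. With peaks of −log10 q of at least 5 it was -0.90, beside -1.22. By covered length it was -0.77, beside -1.05.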
